A study of Mus musculus with 16 samples.

Results

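A family of small RNAs was examined that is built around the most-read sequence of 31 nt in whole sperm RNA of male mice on a normal diet. All sequences that shared its first 15 bases were members, whatever their length, in any of the 4 small RNA libraries made from sperm. This gave 2122 members among 2251023 distinct sequences. The family was chosen on measured values: the founding sequence had 483204 reads in that library, and the 31 nt sequence ranked next had 27274. Its abundance in whole sperm RNA of the normal diet, and the weight of 31 nt reads among the family's ends there, are therefore descriptions. Its levels and ends in the other 3 libraries and its internal variants were not used to choose it.

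The series followed sperm small RNA from males on different diets into embryos and offspring. C57BL/6J males, bought at 5 weeks of age, received either a high-fat diet (HFD, diet D12492) or a normal diet (ND). Mature sperm from the cauda epididymis, the last stretch of the duct where sperm are stored, were treated with a detergent buffer that lyses other cells, and total RNA was extracted with Trizol. For each diet 1 library was made from whole sperm RNA and 1 from RNA of 30 to 40 nt excised from a denaturing gel, all with the TruSeq small RNA chemistry. The number of males behind each library and the time on the diets are not given in the sources used here. With 1 library for each combination, no spread between replicates can be had and no difference was tested. All intervals are exact at 95% and cover counting error only. They treat each read as independent, which reads copied by PCR are not, so they can be too narrow.

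The series title names tsRNAs, small RNAs cut from transfer RNA. Transfer RNA carries amino acids to the ribosome, and ribonucleases that cut it leave fragments that are abundant in mature sperm. Where such a fragment ends is set by the place of the cut and by any trimming afterwards, so its length variants are commonly described by their 3′ ends. The members are given by their length and by the position of their changes.

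Positions count from 1 at the 5′ end of the family's consensus, the base with most reads at each position in whole ND, which reached 36 nt. The 31 nt member is the founding sequence. A member that follows the consensus exactly is called by its length, so the 30 nt member is the founding sequence without its last base and the 34 nt member is the founding sequence with the next consensus bases.

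The libraries held 9517720 reads (whole ND), 9539556 (whole HFD), 10368455 (gel-cut ND) and 10605324 (gel-cut HFD), and levels are given as reads per 1000000 reads of the library (RPM). A count of 0 allows up to 3 reads, or 0.283 to 0.315 RPM. The gel-cut libraries were the less varied, with 71.0 (ND) and 64.3 (HFD) reads for each distinct sequence against 9.11 and 7.38 in whole RNA. Reads in sequences that also occurred in a whole sperm library made up 68.2% of gel-cut ND and 52.6% of gel-cut HFD. The part of these library differences in the values below was not tested. Of 14 marker microRNAs listed for sperm and other cell types, 9 were in the reference, where only reads of the exact mature sequence were counted. The male germ cell markers miR-34b-5p and miR-449a-5p stood at 15.1 to 31.8 RPM in whole RNA and 0 in RNA cut from the gel above microRNA size. The epididymal marker miR-10b-5p stood at 59.5 RPM in whole ND, 127 in whole HFD, 15.4 in gel-cut ND and 4.34 in gel-cut HFD, and miR-148a-3p at 115, 134, 3.09 and 5.00 RPM. Their part in the differences between diets was not tested. In whole RNA the red blood cell marker miR-451a stood at 20.7 (ND) and 53.0 RPM (HFD) beside 0.105 and 0 RPM of miR-144-3p, and the white blood cell and endothelial markers (miR-223-3p, miR-142a-3p and miR-126a-3p) at 0 to 2.52 RPM.

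The family made up 8.35% of the reads of whole ND and 8.23% of those of whole HFD, and ranked 2nd among families of both libraries. It made up 2.70% of gel-cut ND and 2.20% of gel-cut HFD, where it ranked 4th and 5th. In RPM, whole ND had 83510, whole HFD 82350, gel-cut ND 26956 and gel-cut HFD 21971. With all reads as the scale, the level in whole RNA was nearly the same on both diets, with a ratio of HFD over ND of 0.986 (0.983 to 0.989). The ratio was 0.923 when scaled to reads of 28 to 34 nt and 0.828 after division by the median ratio of all sequences. In gel-cut RNA the ratio of HFD over ND was 0.815 (0.811 to 0.820), but its side of 1 depends on the scaling. It was 1.17 after division by the median ratio of all sequences, so no direction can be given for it. This median, named the same way below, rests on 2506 sequences in gel-cut RNA and not on every sequence. Gel-cut RNA held the family at 0.323 times its level in whole RNA for ND (0.321 to 0.324) and at 0.267 times for HFD (0.266 to 0.268).

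Members were many, but few carried the reads. Whole ND held 1258 members, whole HFD 1447, gel-cut ND 463 and gel-cut HFD 390. Of the 2122 members, 1311 (61.8%) occurred in 1 library only and 243 (11.5%) in all 4. These 243 carried 98.6% of the family reads in each whole library, 99.3% in gel-cut ND and 99.7% in gel-cut HFD. Only 19 members followed the consensus exactly, yet they held 97.0% of the family reads in whole ND (96.96% to 97.03%), 96.6% in whole HFD, 96.0% in gel-cut ND and 96.8% in gel-cut HFD. The family is therefore mostly 1 sequence with different 3′ ends, and 98.4% to 99.6% of its reads were 30 to 36 nt long in each library.

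In whole sperm RNA the 3′ ends lay further downstream on the high-fat diet. Members of 30 and 31 nt were 79.3% of the family reads in ND (79.2 to 79.4), against 59.8% in HFD (59.6 to 59.9). Members of 32 to 36 nt were 19.3% in ND (19.2 to 19.3), against 38.7% in HFD (38.6 to 38.8). Members of 34 to 36 nt made up 7.53% and 17.1%. These shares are taken within the family and do not depend on how libraries are scaled. The share of 31 nt reads in ND was high by the choice of the family, so the difference between diets is a description too.

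The 31 nt member, the founder of the family, had 50769 RPM in whole ND against 38488 RPM in whole HFD (ratio 0.758, interval 0.755 to 0.761). It was 60.8% of the family in ND and 46.7% in HFD, and in both libraries it was the most-read of all sequences of any length. The 30 nt member, 1 base shorter, stood at 13801 and 9339 RPM, a ratio of 0.677 (0.671 to 0.683). Both members were lower in whole HFD.

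From 32 nt on, each member was higher in whole HFD. The 32 nt member had 4915 RPM on the normal diet against 9042 RPM on the high-fat diet, a ratio of 1.84 (1.82 to 1.86). The 33 nt member stood at 4467 and 8046 RPM, a ratio of 1.80 (1.78 to 1.82). The 34 nt member stood at 3451 and 6844 RPM, a ratio of 1.98 (1.96 to 2.01). Beyond it the ratios were larger. The 35 nt member stood at 1609 and 3923 RPM, a ratio of 2.44 (2.39 to 2.49), and the 36 nt member at 1002 and 2783 RPM, a ratio of 2.78 (2.71 to 2.84). Division by the median ratio of all sequences (1.19) left these directions in place, with 0.568 and 0.636 for the 30 and 31 nt members and 1.51 to 2.33 for those of 32 to 36 nt. The mean length of family reads was 31.2 nt (SD 1.29 over reads) in whole ND and 31.8 nt (SD 1.64) in whole HFD.

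Shorter members were rare in every library. The 29 nt member stood at 757 RPM in whole ND and 777 RPM in whole HFD, a ratio of 1.03 whose interval (0.993 to 1.06) includes 1. The 28 nt member stood at 96.1 and 155 RPM, a ratio of 1.61 (1.49 to 1.75). In gel-cut RNA the 29 nt member had 8.58 and 23.7 RPM and the 28 nt member 8.49 and 1.89 RPM. The 19 nt member had 619 reads in whole ND, 90 in whole HFD and 0 in both gel-cut libraries, a ratio of HFD over ND in whole RNA of 0.145 (0.115 to 0.181). Members of 20 to 27 nt, with 23 to 389 reads in whole RNA, had the other direction there, with ratios of 1.42 to 3.18. In gel-cut RNA those of 20 to 24 nt had no read, and those of 25, 26 and 27 nt were lower in HFD, with ratios of 0.279, 0.506 and 0.464 from 22 to 199 reads.

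The other reads of whole sperm RNA went the opposite way at 30, 31 and 33 to 36 nt, but not at 28 and 32 nt. Reads outside the family made up 10.4% of the library at 30 nt in ND and 13.0% in HFD, a ratio of 1.24, and at 31 nt 6.22% and 8.15%, a ratio of 1.31. At 28 and 32 nt they were higher in HFD as the family's members were, with ratios of 1.19 and 1.06. At 33 and 34 nt their ratios were 0.735 and 0.658. At 35 nt they made up 5.23% and 2.56%, a ratio of 0.489, and at 36 nt 3.16% and 1.34%, a ratio of 0.425. As a result the family was 45.4% of all 31 nt reads in whole ND and 32.6% in whole HFD, while at 36 nt it was 3.16% and 17.6%. Among 58 families with at least 1000 RPM in both whole libraries, the median difference in mean length between the diets was 0.00128 nt, and 30 were longer and 28 shorter in HFD. With a difference of 0.557 nt, this family ranked 3rd from the longest shift, in a range from -2.55 to 5.60 nt. The ND mean rests on the 31 nt reads for which the family was chosen, so this rank is a description.

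Gel-cut RNA had another set of ends, and the founding sequence was scarce in it. The 31 nt member stood at 1215 RPM in gel-cut ND and 911 RPM in gel-cut HFD, 0.0239 (0.0235 to 0.0244) and 0.0237 (0.0232 to 0.0242) times its level in whole RNA. It was 4.51% of the family in ND and 4.15% in HFD, ranked 51st and 92nd among all sequences, and was 6th and 5th among those of 31 nt. The 30 nt member, although 1 base shorter, kept 6140 and 3000 RPM, 0.445 and 0.321 times its level in whole RNA. A gap at 31 nt thus stood between the members on either side. The most-read member of both gel-cut libraries was the 34 nt member, with 7689 RPM in ND and 6626 RPM in HFD, 28.5% and 30.2% of the family. Against whole RNA it was 2.23 times as high in ND (2.20 to 2.26) and 0.968 times in HFD (0.958 to 0.979).

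The gap at 31 nt was set against other families. Of the family reads of 30 to 32 nt, those of 31 nt were 72.6% in whole ND and 12.1% in gel-cut ND, and 67.1% in whole HFD and 11.8% in gel-cut HFD. For all reads outside the family the same share was 29.8% and 25.4% for ND, and 31.8% and 26.0% for HFD. Over the 15 families with at least 1000 reads of 30 to 32 nt in all 4 libraries, the median difference between gel-cut and whole RNA was -9.42 percentage points in ND and -9.69 in HFD. In each diet 10 of them were lower and 5 higher in gel-cut RNA, with values up to 83.2 points in ND and 81.3 in HFD. With -60.5 and -55.3 points this family was the lowest of the 15 in both diets. The 15 include shortened versions of the same sequence, described further on, which are counted here by read length and not by the position of their end. It had been chosen for its high 31 nt count in whole ND, so its whole ND value was high by choice and the whole HFD value was not used for it.

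The other gel-cut members lay close to each other between diets. The 32 nt member had 3597 RPM on the normal diet against 4054 RPM on the high-fat diet, a ratio of 1.13 (1.11 to 1.14). The 33 nt member stood at 4269 and 3996 RPM, a ratio of 0.936 (0.924 to 0.949), and the 34 nt member had a ratio of 0.862 (0.853 to 0.871). For the 35 nt member the values were 1874 and 1562 RPM (0.833, 0.816 to 0.851), and for the 36 nt member 1050 and 1081 RPM (1.03, 1.00 to 1.06). The 30 nt member had the lowest ratio of the abundant members, 0.489 (0.482 to 0.495), and the 31 nt member had 0.750 (0.731 to 0.771). These ratios move with the scaling, and after division by the median ratio of all sequences (0.695) the 30 nt member stayed below 1, at 0.703, while those of 31 to 36 nt lay between 1.08 and 1.62. Within the family, members of 30 and 31 nt made up 28.3% in gel-cut ND (28.2 to 28.5) and 18.3% in gel-cut HFD (18.2 to 18.5), and members of 32 to 36 nt 71.0% and 81.3%. The share of longer members was thus the higher in HFD in both kinds of RNA. The mean length was 32.6 nt (SD 1.86) and 32.9 nt (SD 1.67), a difference of 0.306 nt that ranked 5th among 26 families. Of these families 20 were longer and 6 shorter in gel-cut HFD, with a median difference of 0.0674 nt, so most shared the direction. Gel-cut reads outside the family had ratios of HFD over ND of 1.80 and 1.24 at 28 and 29 nt. Their ratios were 0.652 and 0.769 at 30 and 31 nt, 0.865 and 0.570 at 32 and 33 nt, and 1.14 to 2.13 at 34 to 36 nt.

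Members that differed by at least 2 times were counted among those with at least 100 RPM in either library. In whole RNA 2 of 12 members passed between the diets, the 35 and 36 nt members, both higher in HFD, where 36.5% of all 956 sequences passed in either direction. In gel-cut RNA 1 of 7 members passed, the 30 nt member, lower in HFD, against 74.1% of 930 sequences. After division by the median ratio of all sequences its ratio was 0.703 and 0 of 7 members passed. Between gel-cut and whole RNA 7 of 11 members passed in ND, 1 higher and 6 lower in gel-cut RNA, against 97.9% of 1265 sequences. In HFD 10 of 11 passed, all lower in gel-cut RNA, against 98.8% of 1320 sequences. With both directions joined, the members that passed were a smaller share than that of all sequences in all 4 comparisons. Of all sequences, 84 passed as higher and 265 as lower in the first comparison, and 440 and 249 in the second. For gel-cut against whole RNA these were 454 and 785 in ND, and 666 and 638 in HFD. By direction, members higher in whole HFD were a larger share than that of all sequences. So were members lower in gel-cut RNA for HFD, and the other members that passed were not. The family was chosen for its level in whole ND, and members could pass the minimum of 100 RPM through whole RNA alone. In whole HFD 11 members reached it, against 7 in gel-cut HFD. The choice and the minimum favor members lower in gel-cut RNA, so their larger share is a description.

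Reads rarely went past the consensus of 36 nt. Family reads of 37 to 44 nt numbered 138 in whole ND, 197 in whole HFD, 390 in gel-cut ND and 246 in gel-cut HFD, against 9540 to 26550 reads of the 36 nt member. The leading member of 38 nt had 4 reads in whole ND, 15 in whole HFD, 153 in gel-cut ND and 61 in gel-cut HFD. The leading member of 39 nt had 0, 2, 70 and 160 reads in the same order. Both had more reads in the gel-cut libraries. The leading member of 37 nt, with 31, 81, 26 and 0 reads, had more in whole RNA. All these counts are low.

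Reads whose last 1 to 3 bases left the consensus made up 0.524% of the family in whole ND, 0.684% in whole HFD, 0.198% in gel-cut ND and 0.171% in gel-cut HFD. A single T off the consensus was the leading kind, with 0.287% of family reads in whole ND (0.275 to 0.299), 0.345% in whole HFD (0.332 to 0.358), 0.110% in gel-cut ND and 0.0841% in gel-cut HFD. A single A made up 0.145%, 0.221%, 0.00751% and 0.00730% in the same order. Such ends can be a base added to the RNA, a misread last base or an error at the ligated end, and these cannot be told apart in the counts. The most-read of them, of 31 nt and ending in T, had 1054 reads in whole ND, 1049 in whole HFD, 183 in gel-cut ND and 41 in gel-cut HFD. The next, of 32 nt and ending in T, had 724, 946, 8 and 15 reads, and one of 31 nt ending in A had 598, 533, 4 and 3. All had most of their reads in whole RNA.

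Internal variants, with a substitution, deletion, insertion or several changes before the last bases, made up 2.46% of family reads in whole ND, 2.68% in whole HFD, 3.62% in gel-cut ND and 2.90% in gel-cut HFD. Single substitutions were 1.53%, 1.64%, 2.10% and 2.13%, and deletions 0.803%, 0.875%, 1.39% and 0.710%.

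Substitutions differed between whole and gel-cut RNA at certain positions. Among reads that were exact or had that single substitution, position 20 was changed in 0.270% in whole ND and 0.264% in whole HFD, but in 0.0276% in gel-cut ND and 0.0111% in gel-cut HFD. Position 30 had the opposite pattern in sum, with 0.0874% and 0.0979% in whole RNA and 0.819% and 0.993% in gel-cut RNA. Only 1 of its substitutions carried this, at 0.0468% and 0.0482% in whole RNA and 0.797% and 0.976% in gel-cut RNA. Another fell, from 0.0305% and 0.0362% to 0.00637% and 0.00621%. The remaining one stood at 0.0102% and 0.0135% against 0.0166% and 0.0114%. Position 27 was changed in 0.372% and 0.368% of reads in whole RNA and in 0.453% and 0.421% in gel-cut RNA. The sum at position 27 also joins substitutions that went opposite ways. One of them was at 0.156% (ND) and 0.167% (HFD) of the reads past the position in whole RNA and at 0.414% and 0.405% in gel-cut RNA. Another was at 0.166% and 0.152% in whole RNA and at 0.0324% and 0.0129% in gel-cut RNA, and the remaining one at 0.0510% and 0.0500% against 0.00709% and 0.00311%. At position 20 most of the difference lay in 1 substitution, at 0.245% and 0.241% in whole RNA and 0.0261% and 0.00886% in gel-cut RNA. Another there also fell, from 0.0232% and 0.0207% to 0.000373% and 0.00133%, with 1 and 3 gel-cut reads. The remaining one was at most 0.00198% in any library. The median over positions 16 to 35 was 0.0882% in whole ND, 0.0988% in whole HFD, 0.0824% in gel-cut ND and 0.0450% in gel-cut HFD.

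A deletion of 1 base at position 17 or 18, which cannot be told apart, was carried by 0.605% of the reads past it in whole ND (0.588 to 0.623), 0.666% in whole HFD (0.648 to 0.684), 0.320% in gel-cut ND and 0.376% in gel-cut HFD. The ends of its reads lay close to those of exact reads in whole RNA. In ND 61.6% of them ended at position 31, against 62.7% of exact reads, and in HFD 45.3% against 48.4%. A deletion of 3 bases between positions 15 and 19 was at 0.0684% and 0.0777% in whole RNA, 1.00% in gel-cut ND and 0.277% in gel-cut HFD. Whole RNA was alike on both diets in this variant, and the gel-cut libraries stood apart from whole RNA and from each other.

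Some sequences with a change in the first 15 bases are not members, yet equal the consensus elsewhere. The largest of these lack 1 base at position 6 or 7, or 3 bases between positions 5 and 11. These are 2 of the 3 other families with most reads in whole ND whose leading sequence is 28 to 34 nt long, the rule for comparison families. Whether such sequences are RNAs of their own or copies made with bases left out cannot be told from the tables.

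The version with 1 base fewer was read 301171 times at all its ends in whole ND, 300511 in whole HFD, 53009 in gel-cut ND and 47010 in gel-cut HFD. For every 100 exact reads of the family that is 39.1, 39.6, 19.7 and 20.8. The version with 3 bases fewer was read 230744, 238568, 39907 and 31234 times, or 29.9, 31.4, 14.9 and 13.8 for every 100 exact reads. In these proportions the diets stood close together, and both versions were rarer beside exact reads in gel-cut RNA than in whole RNA. All sequences with a single deletion of 1 to 3 bases that fell outside the family came to 67.5% of the family's reads in whole ND, 69.2% in whole HFD, 33.7% in gel-cut ND and 33.9% in gel-cut HFD. Counted with them, the family stood at 139912 RPM in whole ND and 139351 RPM in whole HFD, a ratio of 0.996.

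Both versions repeated the ends of the family. With positions counted on the consensus, 55.2% of the reads with 1 base fewer ended at position 31 in whole ND and 40.4% in whole HFD, and ends at positions 32 to 36 were 24.9% and 43.2%. For the version with 3 bases fewer, 55.2% and 40.1% ended at position 31, and 25.1% and 42.3% at positions 32 to 36. In gel-cut RNA ends at position 31 were 4.08% (ND) and 4.83% (HFD) of the first version and 2.30% and 2.26% of the second, and position 34 led with 30.7% to 33.8%. Ends at position 31 were therefore the lower and those beyond it the higher in whole HFD in all 3 sets of sequences. The gap in gel-cut RNA was at consensus position 31 in each set. The reads of the 3 sets differ in length, but whether the RNAs did cannot be told. The cause of the gap was not tested. The 3 sets come from the same libraries and are not independent measurements. The remaining comparison family, with another sequence, stood at 39579 RPM in whole ND and 5711 RPM in whole HFD and had no read in gel-cut RNA. Its mean length was 34.6 nt in ND and 33.98 nt in HFD, a difference in the other direction.

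Substitutions in the shared bases, counted over all sequences of the tables, were most frequent at position 9 in whole RNA and at position 6 in gel-cut RNA. Among reads that were exact or had that single substitution, another base stood there in 3.92% in whole ND, 3.73% in whole HFD, 0.848% in gel-cut ND and 0.478% in gel-cut HFD, where the median over positions 1 to 35 was 0.0532% to 0.0956%. Position 6 was changed at similar shares in all libraries, with 0.860%, 0.885%, 0.931% and 0.723%. Families that differ from the first 15 bases at 1 position numbered 45, which is every such family possible, so this count is at its ceiling. Together they amounted to 6.30% of the family's reads in whole ND, 6.10% in whole HFD, 2.82% in gel-cut ND and 2.22% in gel-cut HFD.

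The 5′ end was far less varied than the 3′ end. Reads that began at a later position of the same consensus amounted to 1.32% of the family's reads in whole ND, 1.40% in whole HFD, 0.972% in gel-cut ND and 0.899% in gel-cut HFD. Starts at position 2 led, with 451 and 474 RPM in whole RNA and 87.3 and 44.9 RPM in gel-cut RNA.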

How the data were processed

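Small RNA of sperm was taken from the tables deposited by the authors, which give the length and the read count of each distinct sequence of 18 to 44 nt in 4 libraries. The letters of the family's sequences are not reported here. The file names call the reads clean. Trimming, filters, pooling and any molecular identifiers are not given in the sources used here. Groups came from the sample titles. The embryo and islet libraries of the 16 samples in the series are not used here.

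Members were found by an exact match to the first 15 bases of the 31 nt sequence with most reads in whole ND. RPM are reads per 1000000 reads of the table. The consensus holds the leading base at each position reached by at least 1000 family reads of whole ND. A read was exact, had an off-consensus 3′ end (mismatches in a final run of at most 3 bases), or was an internal variant. Shares carry Clopper-Pearson intervals and ratios exact conditional binomial intervals at 95%, computed with Python 3.11.15, SciPy 1.17.1 and NumPy 2.4.6. A count of 0 was set to 3 reads in folds. No test across libraries was made, with 1 library per group. The scripts were tested on simulated data.

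Named sequences were the founder, the 5 most-read members of each library, the leading member of each length from 28 to 36 nt, the 3 largest and 3 smallest diet ratios in each kind of RNA (at least 100 RPM in either library, 10 in both), and the 3 most-read members of each variant class. The changes at positions 20, 27 and 30, the deletion of 3 bases at positions 15 to 19, the members past 36 nt, the members under 28 nt and all changes within the first 15 bases were chosen after their values were seen. The family and these lists were chosen with earlier results of these data known. Alternatives were other scalings, other rules of membership and other minimum levels. MicroRNA sequences came from RefSeq.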

Additional observations from a re-analysis of the deposited data

Results flagged for a closer look

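In 7 exact members of the family, those of 25 to 28 nt and of 33 to 35 nt, the ratio of HFD over ND was above 1 in whole sperm RNA and below 1 in gel-cut RNA, with counting intervals that leave out 1. The ratios were 1.44 and 0.279 for the 25 nt member, 2.21 and 0.506 for the 26 nt member, 1.42 and 0.464 for the 27 nt member, and 1.61 and 0.222 for the 28 nt member. They were 1.80 and 0.936 for the 33 nt member, 1.98 and 0.862 for the 34 nt member, and 2.44 and 0.833 for the 35 nt member. The difference between the kinds of RNA was not tested, since each combination had 1 library. After division by the median ratio of all sequences, the 33, 34 and 35 nt members were above 1 in gel-cut RNA too (1.35, 1.24 and 1.20). Those of 25 to 28 nt stayed below it there, at 0.402, 0.728, 0.668 and 0.320, and rest on 20 to 199 gel-cut reads each.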

How the results depend on the processing

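The ratio of family levels between diets in gel-cut RNA, 0.815 with all reads as the scale, turned above 1 when scaled to reads of 28 to 34 nt (1.07), to the median ratio of all sequences (1.17) or to reads in sequences also seen in whole sperm RNA (1.06, an alternative chosen after seeing the data). It was 0.821 with 20 shared bases and 0.810 with 1 base different allowed. In whole RNA the ratio of 0.986 moved to 0.923 (28 to 34 nt) and 0.828 (median ratio), and to 0.996 with single deletions of 1 to 3 bases counted in, also chosen after seeing the data. Gel-cut over whole stayed below 1 throughout: for ND 0.246 (28 to 34 nt), 0.388 (median ratio), 0.312 (1 base different), 0.258 (deletions) and 0.473 (shared sequences), and for HFD 0.285, 0.327, 0.257, 0.211 and 0.508 in the same order and 0.268 with 20 shared bases. The median ratio of all sequences shifts log2 values by 0.25 (whole, HFD over ND), -0.52 (gel-cut, HFD over ND), -0.27 (ND, gel-cut over whole) and -0.30 (HFD). It rests on 5295, 2506, 443 and 400 sequences in the same order, not on every sequence of the libraries. With at least 10 reads per sequence, the 31 nt share was 60.9% in whole ND and 46.9% in whole HFD, and the share of off-consensus ends 0.664% in whole HFD, 0.178% in gel-cut ND and 0.152% in gel-cut HFD. At 10 RPM or more, 19 of 75 members (whole RNA) and 19 of 33 (gel-cut RNA) were past 2 times between diets. Between kinds of RNA these were 65 of 73 (ND) and 71 of 74 (HFD). In the same order 28.2%, 77.6%, 98.0% and 98.4% of all sequences passed. Of these members 18, 6, 15 and 10 were higher and 1, 13, 50 and 61 lower. Of all sequences 915, 3776, 5078 and 5892 were higher and 1488, 3315, 6305 and 6891 lower. With the median ratio as the scale, 0 members passed between diets in gel-cut RNA. Apart from those that follow from fewer sequences counted, the cause of these shifts was not tested. Depth limits the members past 36 nt and the rare variants of the gel-cut libraries, many of which rest on under 100 reads. No paired analysis was possible because each sperm group has 1 library.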
